A study of Sus scrofa with 48 samples.

Results

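Livers of 24 pigs from the high RFI line were compared according to their level of PON3 transcript, with 14 PON3-low pigs set against 10 PON3-high pigs. Residual feed intake (RFI) is the feed eaten beyond what growth and maintenance are predicted to need, and a high RFI marks a less efficient animal. The series holds 48 liver arrays, 1 per pig, from growing castrated male Large White pigs of a low and a high RFI line (24 each), which had been selected in opposite directions over several generations. In each line 12 pigs had received a diet rich in fat and fiber (HF) and 12 a diet poor in both (LF), and all were slaughtered at a common age. Classes were chosen by the measured PON3 level itself. The brightest of the probes that the scanner output names PON3 was ranked over all 48 arrays and cut at the widest gap between sorted values, which left 15 pigs below and 33 above. Of the 15, 14 belonged to the high RFI line and 1 to the low RFI line. In the high RFI line, 6 of the 12 HF pigs and 8 of the 12 LF pigs were PON3-low. Classes were therefore not set by treatment, and no label of the series names them.

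Paraoxonases are calcium-dependent lactonases that also split aryl esters. PON1 and PON3 are made in the liver and travel in blood on high-density lipoprotein, whereas PON2 stays inside cells of many tissues. All 3 are known for protecting lipids from oxidation, and their genes lie next to each other.

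Levels below are log2 intensities minus the median of the array, and a difference is PON3-low minus PON3-high as fitted with diet as a covariate, which can depart a little from the difference of the plain class means. Because probe names in this family were not settled by the files, the sequences of 4 probes are given, 60 bases each, 5′ to 3′ as the scanner output gives them, and in lower case throughout because no stretch was singled out.
A_72_P385478: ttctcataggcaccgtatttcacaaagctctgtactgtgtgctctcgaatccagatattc
O12638: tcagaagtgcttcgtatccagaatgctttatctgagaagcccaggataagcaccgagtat
A_72_P035606: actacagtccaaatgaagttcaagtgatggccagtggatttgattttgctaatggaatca
A_72_P107711: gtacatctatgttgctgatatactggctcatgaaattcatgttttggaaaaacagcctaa
The scanner output names A_72_P385478 PON1, but its accession is that of pig PON3, and it is treated as PON3 here. O12638 is named PON1 through a human protein accession. A_72_P035606 carries the pig PON1 accession and A_72_P107711 the pig PON2 accession. No stretch of 20 bases was shared between probes of different paraoxonases. O9320 and A_72_P006641, both named PON2, overlap and were not independent readings.

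The 2 PON3 classes stood far apart. At the probe used for the choice (A_72_P182996), the 14 PON3-low pigs lay between 1.17 and 2.81 (median 2.26) and the 10 PON3-high pigs between 4.60 and 5.96 (median 5.72). The widest gap was 1.78 on the log2 scale, against 0.74 for the next widest gap, and the values just below and just above it were 2.81 and 4.60. Both of these pigs were from the high RFI line. The fitted difference was -3.66, a 12.7-fold lower level in PON3-low pigs. As these values chose the classes, they were not tested. Fewer PON3-expressing cells and less PON3 transcript per cell cannot be told apart in whole liver.

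**Figure D1:**
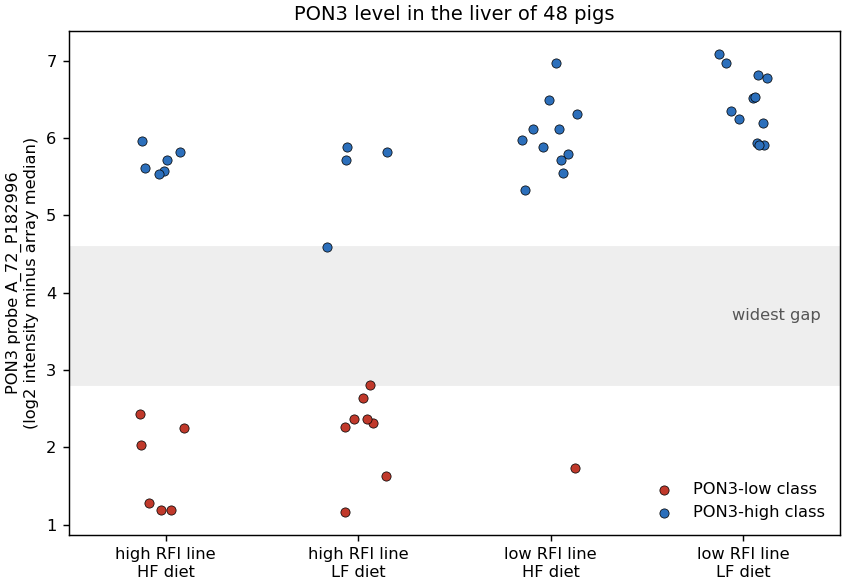
PON3 level (log2 intensity of probe A_72_P182996 minus the array median) of each of 48 pigs by line and diet, with PON3-low pigs in red, PON3-high pigs in blue and the widest gap in grey. The 14 PON3-low pigs of the high RFI line sit at 2.81 or below and the 10 PON3-high pigs at 4.60 or above.

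Diet did not separate the classes. Among PON3-low pigs, the median was 1.66 in the 6 HF pigs and 2.34 in the 8 LF pigs. Among PON3-high pigs it was 5.67 in the 6 HF pigs and 5.77 in the 4 LF pigs. In the low RFI line, the 23 PON3-high pigs ranged from 5.34 to 7.09 (median 6.19), so that their range overlapped that of the PON3-high pigs of the high RFI line. The single PON3-low pig of the low RFI line, fed HF, was at 1.74, inside the range of the 14.

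The other PON3 probes gave the same picture. A_72_P385478 lay between 3.22 and 4.92 in PON3-low pigs and between 6.76 and 7.99 in PON3-high pigs. A_72_P223547 lay between -2.99 and -1.23 against 0.23 to 1.78, and A_72_P504977 between -3.78 and -1.61 against -0.19 to 1.49. Each of the 4 PON3 probes, cut at its own widest gap, put the same 15 of the 48 pigs below it. Fitted differences were -3.57, -3.39 and -3.58 for these 3 probes. On every one of the 48 arrays, PON3-low pigs included, all 4 gave a signal well above background. One further probe described as pig PON3 (A_72_P020806) was well above background on 0 of the 48 arrays and gave no value.

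The 2 probes named PON1 disagreed. O12638 lay between 2.25 and 4.03 in PON3-low pigs and between 5.86 and 7.16 in PON3-high pigs, a difference of -3.66, and its own widest gap put the same 15 pigs below it. Over the 14 PON3-low pigs it followed the PON3 probe with r = 0.98, as a description over arrays that share their processing. A_72_P035606 ranged from 5.46 to 6.80 (median 6.43) in PON3-low pigs and from 5.89 to 6.27 (median 6.15) in PON3-high pigs. On this probe the classes overlapped and the difference was +0.23, opposite in sign to that on O12638. The files do not settle which pig transcript O12638 reads. Probes named PON1 were given no test because they may share sequence with PON3, so the level of PON1 between classes is described by these values alone.

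PON2, the intracellular paraoxonase, lies next to PON3. On its brightest probe (O9320), PON3-low pigs ranged from 5.87 to 6.73 (median 6.32) and PON3-high pigs from 5.83 to 6.19 (median 6.02). Of the 14 PON3-low pigs, 11 were above every PON3-high pig and 3 lay within the range of these. The difference was 0.30 ± 0.09 (SE), with P = 0.00184 but P-BH = 0.724 by limma. The other 3 PON2 probes differed by 0.27 (A_72_P006641), 0.36 (A_72_P538923) and 0.28 (A_72_P107711), with P of 0.00506, 0.00686 and 0.11. An unnamed probe described as resembling bovine PON2 (A_72_P306623) was between 0.55 and 1.33 (median 1.06) in PON3-low pigs and between 0.19 and 0.97 (median 0.38) in PON3-high pigs. Its difference was 0.51 ± 0.10 (SE), with P = 4.5e-05 and P-BH = 0.45. Fitted differences of these 5 probes corresponded to levels between 1.21-fold and 1.43-fold higher in PON3-low pigs, without any of them passing the adjusted threshold.

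**Figure D2:**
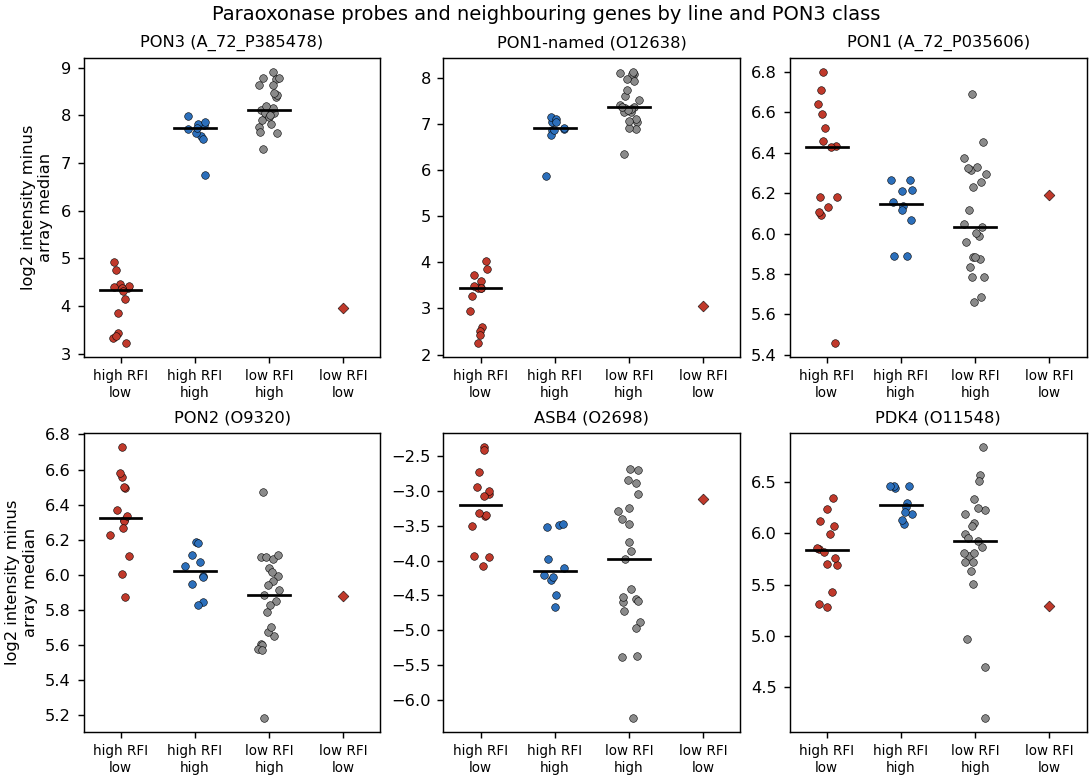
Level of each pig (log2 intensity minus the array median) for 6 probes, with the high RFI line split into PON3-low (red) and PON3-high (blue) pigs, the 23 PON3-high pigs of the low RFI line in grey and its single PON3-low pig as a diamond. Bars are medians. Classes are separate for A_72_P385478 and O12638 and overlap for A_72_P035606, PON2, ASB4 and PDK4.

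Across all other transcripts, no probe passed the adjusted threshold. Of 43607 probes tested with limma, with diet as a covariate, 0 had a P-BH under 0.05 (0% of those tested), and the smallest P-BH was 0.45. Without moderated variances the count was again 0. At an unadjusted P under 0.05, 2515 probes (5.77%) were counted. With the cut-offs of the study (P under 0.01 and a fold change over 1.1), 525 probes (1.2%) were counted, 300 with a higher level in PON3-low pigs (0.688%) and 225 with a lower level (0.516%). Of the 525, 93 differed by more than 1.5-fold and 18 by more than 2-fold. With 1 probe for each of 10539 named genes, 122 genes met the cut-offs (1.16%), 94 higher (0.892%) and 28 lower (0.266%) in PON3-low pigs, and 0% had a P-BH under 0.05. The median standard error of a difference was 0.11 on the log2 scale, and the median difference over all tested probes was 0.01.

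**Figure D3:**
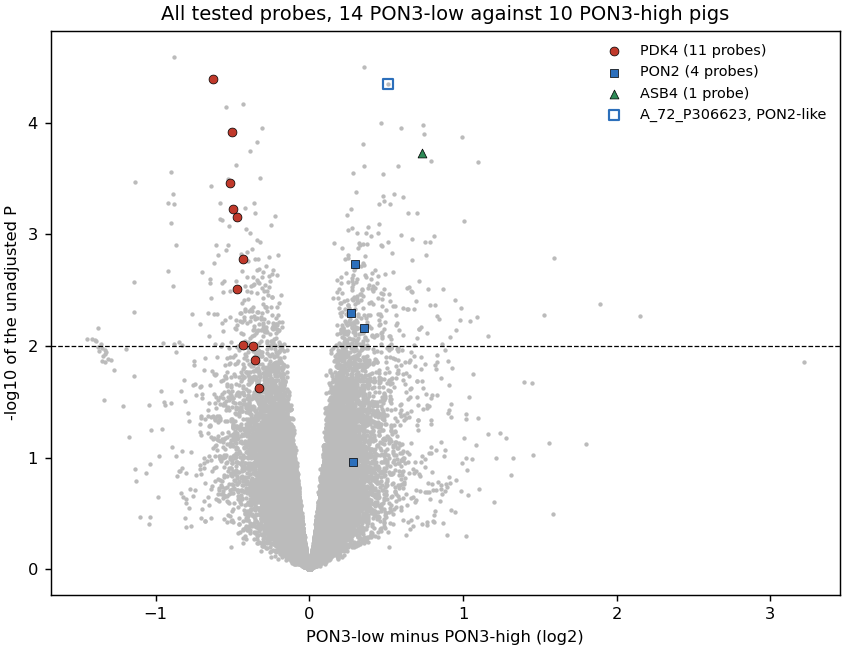
Difference between PON3-low and PON3-high pigs (log2, horizontal) and -log10 of the unadjusted P (vertical) for 43607 tested probes. The dashed line is P = 0.01, PON3 and PON1 probes are not shown, and no probe had a P-BH under 0.05.

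The 40 named genes nearest PON3, 20 on each side in the gene order of the assembly Sscrofa11.1, were then read as a list. A tested probe was found for 23 of them. ASB4 was left out of the counts because its 1 dim probe passed the filter through the PON3-low class. Brightest probes of the other 22 genes were higher in PON3-low pigs for 15 genes and lower for 7, with a median difference of 0.05, beside 0.02 for all named genes. The 15 include CALCR and TFPI2, also read by 1 dim probe each. Their probes were well above background in 10 and 13 of 14 PON3-low pigs, against 5 and 7 of 10 PON3-high pigs. Both thus met the filter on the PON3-low class alone, and their differences are values without a test. None of the 22 had a P-BH under 0.05, and 3 met the study's cut-offs, PON2, PDK4 and GATAD1, beside 1.16% of all named genes. PON2, ASB4 and PDK4 follow PON3 in this order. GATAD1 stands 17 places before PON3 and differed by 0.21 ± 0.07 (SE), with P = 0.00738 and P-BH = 0.793. The 20 tested genes other than PON2, ASB4 and PDK4 differed by -0.11 to 0.31, with the dim CALCR probe at the upper end. DYNC1I1, the gene after PDK4, differed by -0.11 ± 0.13 (SE), with a 95% interval of -0.38 to 0.17.

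PDK4, a kinase that shuts off pyruvate dehydrogenase and so spares glucose during fasting, was measured by 11 probes. On the brightest (O11548), PON3-low pigs ranged from 5.28 to 6.35 (median 5.83) and PON3-high pigs from 6.09 to 6.47 (median 6.28). Here 11 of the 14 PON3-low pigs were below every PON3-high pig, and 3 were inside the range of these. The difference was -0.50 ± 0.11 (SE), a 1.42-fold lower level, with P = 0.000122 and P-BH = 0.45. All 11 probes were lower in PON3-low pigs, by -0.62 to -0.33, and 8 had a P under 0.01. These probes read 1 transcript and are not replicates. On the probe with the smallest P (A_72_P584171, rank 3 of all tested), levels were 2.82 to 3.97 (median 3.38) against 3.83 to 4.36 (median 4.05), with P = 4.06e-05 and P-BH = 0.45.

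ASB4, which encodes a substrate-binding subunit of a ubiquitin ligase, lies between PON2 and PDK4 and was measured by 1 dim probe (O2698). PON3-low pigs ranged from -4.08 to -2.36 (median -3.19) and PON3-high pigs from -4.67 to -3.47 (median -4.15). Of the PON3-low pigs, 10 of 14 were above every PON3-high pig. The difference was 0.73. The probe was well above background in 12 of 14 PON3-low and in 3 of 10 PON3-high pigs, so that it passed the filter on dim probes through the PON3-low class, and its difference is given as a value without a test. The value shrank to 0.14 with the normexp background correction and to 0.23 on intensities without background subtraction, so its size depended on how background was treated.

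**Figure D4:**
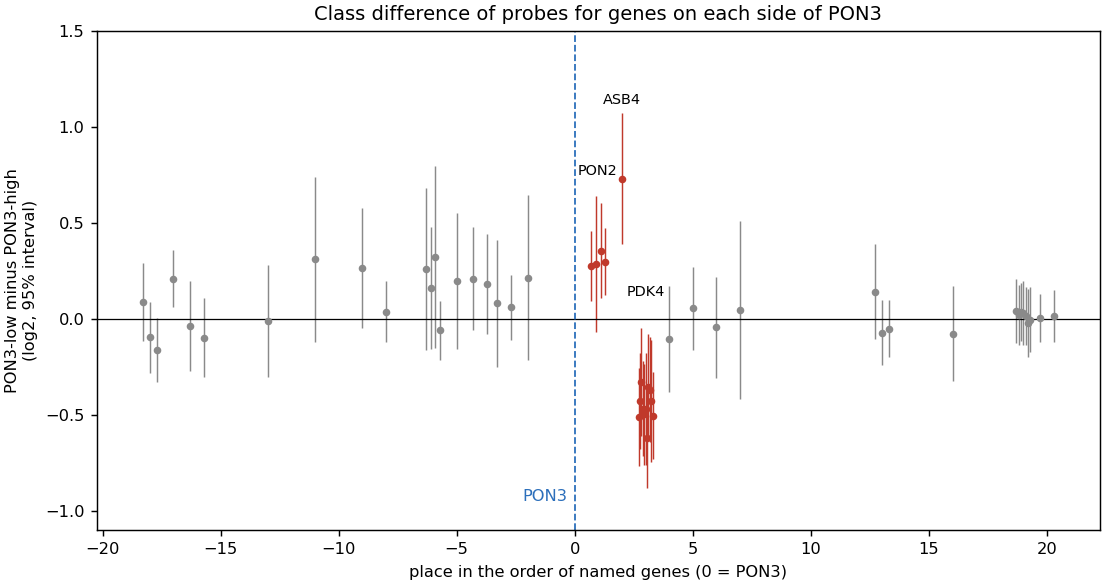
Difference between PON3-low and PON3-high pigs (log2, with 95% intervals) for each tested probe of the named genes up to 20 places before and after PON3. The PON2 probes sit above 0 and the 11 PDK4 probes between -0.62 and -0.33. Other genes except ASB4 lie between -0.11 and 0.31 on their brightest probes, with the dim CALCR probe at the upper end. ASB4, at 0.73, passed the filter on dim probes through the PON3-low class, so its interval is not read as a test.

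In the low RFI line, 23 of 24 pigs were PON3-high. These 23 pigs had a PDK4 level (O11548) of 4.20 to 6.85 (median 5.93), a range that took in both classes of the high RFI line. Their PON2 level (O9320) was 5.18 to 6.47 (median 5.88), and their ASB4 level -6.26 to -2.68 (median -3.97). The single PON3-low pig of that line had 5.29 for PDK4, 5.88 for PON2 and -3.12 for ASB4. With 1 pig no test of the classes within that line was possible. When all 48 pigs were fitted with line and diet as terms, the PON3 class difference was -0.52 for PDK4, 0.27 for PON2 and 0.81 for ASB4, and again 0 probes passed. In that fit 14 of the 15 PON3-low pigs were those of the high RFI line. It therefore largely repeats the comparison above and does not show the differences in the low RFI line.

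Pathway lists around paraoxonases gave no called gene. The 17 pathway lists and 8 lists of cell type markers held 441 different genes, of which 369 were tested. Of these, 0 had a P-BH under 0.05 and 6 met the study's cut-offs, PON2, PDK4, PNPLA2, PROX1 and CD8B among them, a share of 1.63% beside 1.16% of all named genes.

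Among HDL and apolipoprotein genes, the carriers of secreted paraoxonases, 8 of the 19 tested were higher and 11 lower in PON3-low pigs (median -0.02), and 1 had a P under 0.05. That gene was SCARB1, the HDL receptor, at -0.14 (P = 0.0438, P-BH = 0.852). As background, 576 of all 10539 named genes had a P under 0.05. Antioxidant enzymes were higher in 15 of 22 (median 0.03), with 0 at P under 0.05. PRDX6, a peroxiredoxin that reduces phospholipid hydroperoxides, had -0.25 ± 0.12 (SE). NRF2 targets, the genes of the oxidative stress response, were higher in 17 of 22 (median 0.06). Over all named genes, 57.2% were higher in PON3-low pigs, so that a majority of higher members is also the background.

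Other esterases and lactone hydrolases, the enzymes closest in activity to paraoxonases, were higher in 11 of 17 (median 0.03). PNPLA2, the first lipase of triglyceride breakdown, ranged from 3.46 to 4.45 in PON3-low pigs and from 3.04 to 4.05 in PON3-high pigs, with overlap. Its difference was 0.45 ± 0.12 (SE), with P = 0.000805 and P-BH = 0.627. All 3 PNPLA2 probes were higher, by 0.13 to 0.79, with P of 0.000219 to 0.152 by limma, so the size depended on the probe. Arachidonate and eicosanoid enzymes were lower in 11 of 16 (median -0.05). PPARA targets, the genes of fatty acid oxidation and fasting, to which PDK4 belongs, were split 11 higher and 11 lower. Among them CPT2, an enzyme of fatty acid import into mitochondria, differed by 0.46 (P = 0.0212, P-BH = 0.823).

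Transcription factors of hepatocyte identity showed small differences in both directions. Of 25 hepatocyte transcription factors, 13 were higher and 12 lower (median 0.01). PROX1, a repressor in hepatocytes, had -0.33 ± 0.09 (SE), with P = 0.00167 and P-BH = 0.694, and its 4 probes were all lower. Bile acid genes were higher in 13 of 16 (median 0.10), acute phase proteins lower in 16 of 21 (median -0.05) and interferon-stimulated genes higher in 23 of 27 (median 0.16), each with 0 genes at P under 0.05. In the interferon list OAS1, an RNA-sensing antiviral enzyme, had the largest difference, 1.56 ± 0.84 (SE), with PON3-low pigs from 1.25 to 7.07 and PON3-high pigs from -0.61 to 6.49. Medians were 0.03 for sterol synthesis, 0.03 for fatty acid synthesis, -0.02 for xenobiotic receptors and P450 enzymes, 0.04 for MHC genes and -0.002 for endoplasmic reticulum stress genes. Genes that had been listed because they differ between the lines had a median of 0.02 over 15 tested. They were chosen on these samples, and NRN1, a neurite growth factor, showed the largest difference in them, 1.40 (P = 0.021, P-BH = 0.823).

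**Figure D5:**
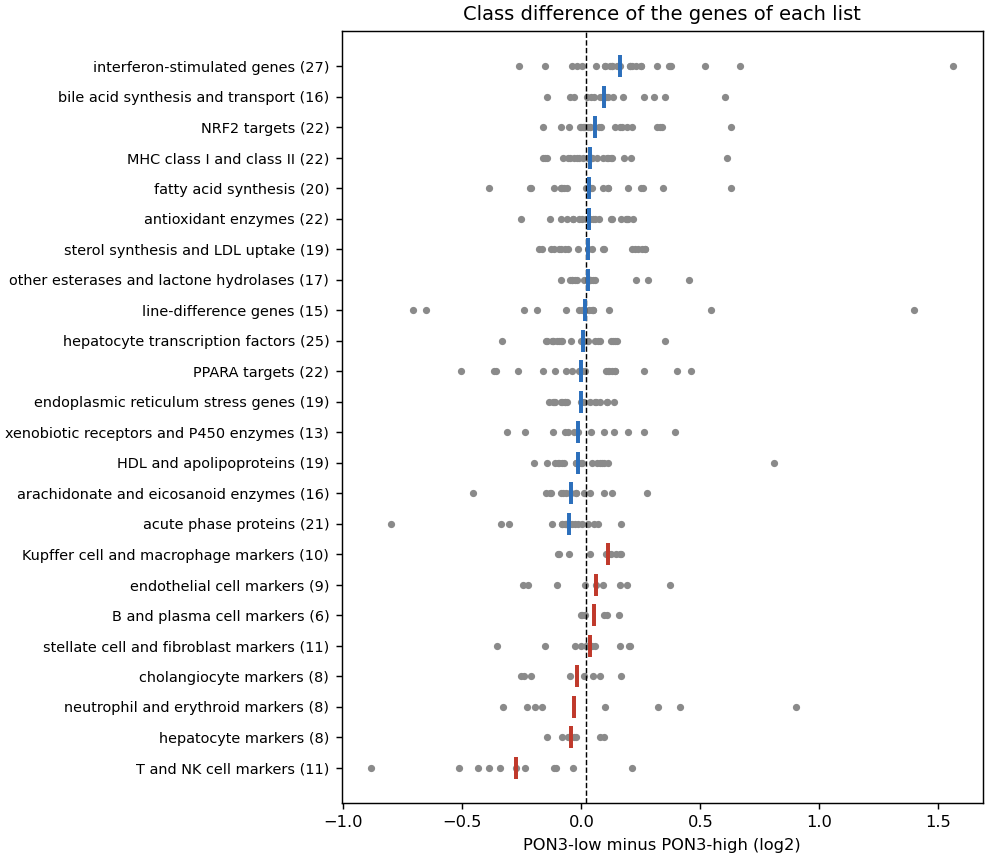
Difference between PON3-low and PON3-high pigs (log2) of each tested gene (grey points) by list, with the number tested in parentheses and medians as blue (pathway) or red (cell type marker) bars. The dashed line is the median of all named genes, 0.02, and the medians shown lie between -0.27 (T and NK cell markers) and 0.16 (interferon-stimulated genes). The paraoxonase list is not drawn because PON2, at 0.30, was its only tested gene.

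Hepatocyte markers overlapped between the classes. Their mean level was 8.54 to 9.15 in PON3-low and 8.67 to 9.07 in PON3-high pigs (2-sided permutation test, P = 0.943), and ALB and APOB were among the tested markers. Of the 8 marker lists, T and NK cell markers had the median furthest from 0. Of 11 tested, 10 were lower in PON3-low pigs (median -0.27) and 4 had a P under 0.05. Of all 10539 named genes, 4511 were lower and 576 had a P under 0.05. The strongest was CD8B, the beta chain of CD8, at -0.88 ± 0.27 (SE), with P = 0.00291 and P-BH = 0.736, and well above background in 8 of 14 PON3-low and 9 of 10 PON3-high pigs. The CD8B difference was -0.18 among HF pigs (6 against 6) and -1.68 among LF pigs (8 against 4), with an interaction P of 0.00267 and P-BH = 0.468. GZMB, a cytotoxic protease, had -0.51 (P = 0.0142). Mean level of the list was -1.57 to -0.54 (median -1.02) in PON3-low and -1.0 to -0.19 (median -0.72) in PON3-high pigs. The permutation test, which had no diet term, gave P = 0.0145 and P-BH = 0.174 over 12 array measures. The part of T and NK cell markers in any of the differences above was not tested. Means of the other marker lists (macrophage, B and plasma cell, neutrophil and erythroid, endothelial, stellate and cholangiocyte) had a permutation P of 0.235 or more.

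Some genes outside these lists had low unadjusted P, and were singled out after their values were seen. None of them passed the adjusted threshold. CA2, a carbonic anhydrase, was lower in PON3-low pigs on all 5 probes, by -0.92 to -0.87 (smallest P = 0.000434, P-BH = 0.561). On its brightest probe, PON3-low pigs ranged from 2.77 to 4.0 and PON3-high pigs from 2.64 to 5.41, and 8 of the 10 PON3-high pigs were above every PON3-low pig while 1 was below every one of them. CA3, another carbonic anhydrase, was lower on all 20 probes, by -1.45 to -0.48, with 6 of them at P under 0.01 and P-BH of 0.793 or above. TAOK3, a stress-activated protein kinase, was higher by 0.74 on both probes (P-BH = 0.45). HEBP2, a heme-binding protein, was higher by 0.60 and 0.58 on its 2 probes (P-BH of 0.45 and 0.486). P2RX4, an ATP-gated ion channel, was higher by 0.53 and 0.55 (P-BH = 0.561).

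Class differences were also set against diet. For the interaction of PON3 class and diet, 0 of 43607 probes (0%) had a P-BH under 0.05 by limma, with a smallest P-BH of 0.0726 and 3840 probes (8.81%) at an unadjusted P under 0.05. For PDK4 the difference was -0.56 among HF pigs and -0.44 among LF pigs. For PON2 it was 0.24 and 0.37, and for ASB4 0.63 and 0.85. The interaction P was 0.572 for PDK4 and 0.455 for PON2, so a difference between diets was not detectable for either.

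No difference in array quality was detected between the classes. The median intensity was 53 to 126 in PON3-low and 67 to 115 in PON3-high pigs (permutation P = 0.709), and 65.8% to 77.2% against 68.8% to 72.4% of probes were well above background (P = 0.27). The arrays lay on 6 slides, scanned on 2 days. PON3-low pigs of the high RFI line made up 1 to 4 of the 4 arrays of that line on each slide, and on slide 3 all 4 were PON3-low. With slide as a block, differences were -0.51 for PDK4, 0.39 for PON2 and 0.77 for ASB4. Within scan day 1 (8 PON3-low and 4 PON3-high pigs) they were -0.41, 0.29 and 0.46, and within scan day 2 (6 and 6) -0.61, 0.32 and 0.996. Counts at P-BH under 0.05 were 0 in each of these fits.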

How the data were processed

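RNA from 48 pig livers was labelled with 1 dye and hybridized to 60-mer custom porcine Agilent arrays, 1 per pig. The authors deposited scanner output with intensity values per spot (mean, median, local background and background-subtracted), not normalized between arrays, and a table of log2 values which, per the file values, is the log2 median intensity less a constant per array. Per the submitters' processing notes R 2.10.0 was used.

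The analysis started from the background-subtracted values, without control spots. Spots marked as outliers (483) were treated as missing, and 0 were saturated. Of 60305 probes, 43613 were well above background on at least 10 of the 24 arrays of the high RFI line; log2 values were centred on the array median over these. The 6 among them that are named PON3 or PON1 were described and not tested, and BH adjustment ran over the other 43607. Symbols came from Sscrofa11.1 reference accessions (7783 probes), otherwise from the scanner output (16731); 35791 had none. The number of arrays limits the precision.

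A linear model of class and diet was fitted with limma 3.58.1 in R 4.3.3, variances moderated (prior degrees of freedom 2.97); an interaction term was added separately. Array measures were compared by 2-sided permutation tests with 100000 resamples (scipy), without a diet term. Steps were tested on simulated data. Paraoxonases, the 20 named genes on each side of PON3 and called genes were to be named, a gene being represented by its brightest probe; genes singled out beyond this rule are said to be so, and some genes are not reported here. The classes, the members and the gene lists were chosen with earlier results of these data known. Alternatives were no moderated variances, 75th percentile centring, quantile normalization, normexp (offset 50), no background subtraction, no filter, a filter on all 24 arrays, the deposited log2 values, slide as a block, all 48 arrays, other class definitions, each diet alone and no diet term; scan day and leaving out each array were added after seeing the data.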

Additional observations from a re-analysis of the deposited data

Results flagged for a closer look

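For 29 tested probes named in the text, the lowest and highest of the 10 PON3-high pigs of the high RFI line were compared with their nearest neighbour by Dixon's ratio (the gap over the whole range, critical value 0.466 for 10 values). Chance gives about 1 such deviation in 20 groups, and 1 probe had one. On 1 of the 11 PDK4 probes (A_72_P170396), HF_RFIpl replicate 8 was the highest, at 2.32 against 1.95 for the next, with a ratio of 0.602.

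PON3 and PON1 probes were left out of this comparison because PON3 values chose the classes. As a description, LF_RFIpl replicate 2 had 4.60 on A_72_P182996, against 5.53 for the next PON3-high pig, and it is the pig just above the gap that defines the classes. Without this pig, and without the pig just below the gap, 0 probes had a P-BH under 0.05.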

How the results depend on the processing

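Under the 16 alternatives set out in the methods and the later fits by scan day, 0 probes had a P-BH under 0.05 between the classes, and the same held when each of the 24 arrays was left out in turn. For the interaction with diet the count was 0 under all 8 alternatives. The count at the study's cut-offs (525 probes) ranged from 384 (normexp) to 743 (slide as a block), except that it was 251 within scan day 1 alone; the cause was not tested. Leaving out 1 array gave 373 to 617. The signs of PDK4 and PON2 were kept in every fit, with PDK4 between -0.61 and -0.41 and PON2 between 0.24 and 0.39. ASB4, whose probe passed the filter through the PON3-low class, ranged from 0.14 to 0.996, given as values without a test. P-BH was 0.335 or more for PDK4 and PON2 (0.301 or more with 1 array left out). ASB4 had no value under the filter on all 24 arrays and in the deposited table. A_72_P223547, the second brightest of the probes that the scanner output itself names PON3, gave the same classes and so the same values. Precision is limited by 14 and 10 arrays and, for dim probes, by the signal over background.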
